A study of Mus musculus with 3 samples.

Results

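The genes described here copy DNA, drive the cell through its cycle and part the chromosomes. They were found by name: a gene was a member if its platform symbol began like those of the Mcm2 to Mcm7 helicase subunits, the A, B, D and E cyclins, the Cdk, Cdc and Kif genes, the Cenp, Aurk, Plk and Bub genes, Top2a, Mki67 or Rfc1 to Rfc5, or was that of Pcna or of a DNA polymerase alpha, delta or epsilon subunit, with the GTPase Cdc42 left out. The names matched 143 genes on 154 probes, and 49 of them (34.3%) had values on all 3 arrays, on 52 probes. Those 49 genes are the members, out of 3915 genes measured on all 3 arrays (25.9% of the 15096 genes of the platform). A member with several such probes was given their mean.

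The cells came from kidneys of HoxB7-GFP transgenic mouse embryos at 15.5 days post coitum. In these mice a Hoxb7 promoter drives green fluorescent protein in the ureteric tree, the branching epithelium that becomes the collecting ducts. Kidney cells of both sexes, pooled, were sorted into a GFP+ and a GFP- fraction, both from transgenic kidneys, and their amplified RNA was set against each other on each of 3 arrays with 2 channels. The GFP- fraction held every other cell of the kidney, so each value, a log2 ratio of GFP+ over GFP-, compares the ureteric tree with a mixture of cell types; in such bulk RNA, fewer cycling cells and less RNA per cycling cell cannot be told apart. That direction is likely but not certain, since the sources used here do not state the dyes and no dye swap was made. Taken this way, the measured markers of ureteric epithelium had a median of 2.05 and those of macrophages -1.96. The marker lists were chosen with earlier results of these data known, so these medians do not settle the direction.

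By symbol and textbook role, 12 members act in DNA replication, 10 are cyclins, cyclin-dependent kinases (Cdks) or their direct regulators, 15 act in mitosis, and 12 carry a matching name but are known mainly for other work or were not placed in a role. Before S phase the Mcm2 to Mcm7 ring is loaded onto origins as the core of the replicative helicase, and DNA polymerases alpha, delta and epsilon with the clamp loader Rfc follow it. Cyclins switch Cdks on in turn, the D and E cyclins towards S phase and the A and B cyclins towards mitosis, where Aurora and Polo kinases, kinesins, centromere proteins and the Bub checkpoint act on the spindle. In the developing kidney the ureteric tips and the surrounding progenitors are both known to divide.

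Replication and mitosis genes are known to carry different promoter words: binding words of E2F factors at many S-phase genes, and CCAAT boxes with a cell cycle genes homology region (CHR) at many mitotic genes. The promoter sequence of 7 genes is shown because their roles differ and so do their words. Each line gives the 155 bases before the annotated start, 5′ to 3′ on the gene's strand, from RefSeq on GRCm38.p6; for Mcm3 a further 30 bases from just after the start are given, since both of its E2F words lay there. Capitals mark the words searched: the E2F words TTTCCCGC, TTTGGCGC and TTTCGCGC, CCAAT, and the CHR words TTTGAA and TTTAAA, on either strand, so that ATTGG is a CCAAT read from the other side. TTTAAA reads the same on both strands and was counted once.
Mcm2, replication, chr6:88898781-88898935 minus strand: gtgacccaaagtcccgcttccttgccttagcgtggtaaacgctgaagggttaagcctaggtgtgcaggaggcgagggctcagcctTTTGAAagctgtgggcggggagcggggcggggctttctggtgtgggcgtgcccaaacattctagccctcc
Mcm3, replication, chr1:20820313-20820467 minus strand: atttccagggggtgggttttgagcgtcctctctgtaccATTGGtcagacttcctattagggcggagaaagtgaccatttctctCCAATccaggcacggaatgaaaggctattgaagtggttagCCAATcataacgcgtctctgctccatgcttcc
Mcm3, after the start, chr1:20820266-20820295 minus strand: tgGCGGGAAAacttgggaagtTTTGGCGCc
Mcm5, replication, chr8:75109354-75109508 plus strand: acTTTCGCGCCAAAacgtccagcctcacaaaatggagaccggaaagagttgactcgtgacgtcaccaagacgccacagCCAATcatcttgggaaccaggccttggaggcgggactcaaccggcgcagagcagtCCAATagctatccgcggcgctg
Cdk1, cyclins and Cdks, chr10:69352913-69353067 minus strand: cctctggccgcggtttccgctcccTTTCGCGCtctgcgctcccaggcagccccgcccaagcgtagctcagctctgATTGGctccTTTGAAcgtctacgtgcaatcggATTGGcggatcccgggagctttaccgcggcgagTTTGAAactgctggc
Ccnb2, cyclins and Cdks, chr9:70421555-70421709 minus strand: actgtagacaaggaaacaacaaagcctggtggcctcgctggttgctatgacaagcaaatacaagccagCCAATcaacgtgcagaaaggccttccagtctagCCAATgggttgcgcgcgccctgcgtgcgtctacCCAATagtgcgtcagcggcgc
Plk1, mitosis, chr7:122159280-122159434 plus strand: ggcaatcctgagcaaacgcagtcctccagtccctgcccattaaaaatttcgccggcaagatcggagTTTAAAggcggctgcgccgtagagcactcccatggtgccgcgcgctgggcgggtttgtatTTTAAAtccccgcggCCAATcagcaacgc
Aurka, mitosis, chr2:172370571-172370725 minus strand: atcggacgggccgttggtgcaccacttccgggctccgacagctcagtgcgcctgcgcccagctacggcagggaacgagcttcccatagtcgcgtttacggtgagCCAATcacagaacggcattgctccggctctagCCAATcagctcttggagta

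In these windows Mcm5 held 2 E2F words on opposite strands that overlapped, and Mcm3 held 2 that did not. Mcm5 also held CCAAT and a CHR word, the latter at -221, outside the stretch shown. Mcm2 held no E2F word, a CHR word at -70 and CCAAT at -175, outside the stretch shown. Cdk1 held 1 E2F word, at position -131 from the start, together with 2 CHR words, at -71 and -15. Plk1 and Aurka held CCAAT and no E2F word, and the CHR words of Aurka lay after its start, at 18 and 33, outside the stretch shown. Ccnb2 carried 3 CCAAT words at -87, -54 and -21, and its CHR words, at -167 and 5, lay outside it as well.

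Over the whole window of 300 bases, from 250 before to 50 after the start, RefSeq gave 48 windows for 42 of the members. The 7 without a window were Ccna2, Ccnd1, Ccnd2, Cdk5, Kif20a, Mcm4 and Pole. An E2F word was present in 6 of the 11 replication windows (54.5%) and in 2 of the 17 mitosis windows (11.8%), against 3.94% of the 3885 windows of all tested genes and 1.84% of all 32851 windows. CCAAT was present in 15 of the 17 mitosis windows (88.2%) and 4 of the 11 replication windows (36.4%), against 39.4% for all tested genes and 37.4% for all windows. A CHR word was present in 10 mitosis windows (58.8%) and 2 replication windows (18.2%), against 19.5% and 27.6%. All 10 mitosis windows with a CHR word also held CCAAT. The same pair was in 2 replication windows (18.2%), 2 windows of cyclins and Cdks (25%) and 1 of other roles (8.33%). It was found in 8.06% of the windows of tested genes and 10.7% of all windows. The 8 windows of cyclins and Cdks held an E2F word in 1 case, CCAAT in 6 and a CHR word in 3; the 12 windows of members with other roles held them in 1, 4 and 4 cases. These are matches of letters, and several windows belong to 1 gene.

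**Figure D1:**
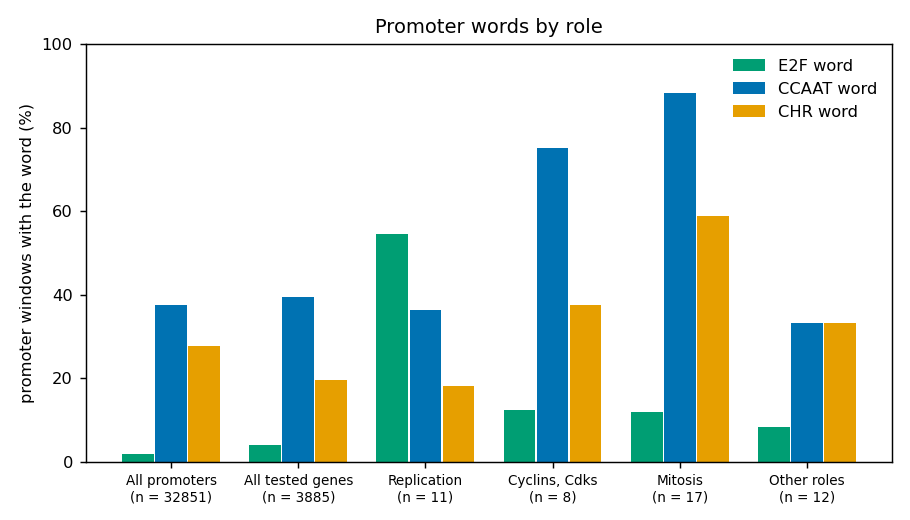
Share of promoter windows (%) that hold an E2F word, a CCAAT word or a CHR word, for all RefSeq windows, the windows of all tested genes and the members by role; n is the number of windows. The E2F bar is tallest for replication (54.5%), and the CCAAT and CHR bars are tallest for mitosis (88.2% and 58.8%).

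No member passed the test: the count at an adjusted p below 0.05 (limma, Benjamini-Hochberg over all 3915 genes) was 0 higher and 0 lower of 49, and it was also 0 with an ordinary statistic per gene. Over all genes, 1.38% passed as higher in the GFP+ fraction and 1.4% as lower. At an unadjusted p below 0.05, 1 member was higher (2.04%, against 8.45% of all genes) and 6 were lower (12.2%, against 6.41%): Cenpk was the higher one, and Mcm4, Ccnd2, Cdc25b, Mki67, Cdk9 and Cenpv the lower ones, Cenpv by the mean of 2 probes that disagreed. The smallest mean difference that passed among all genes was 0.892 on the log2 scale in absolute size, and the largest of any member was 0.654. Every one of the 49 members therefore lay below the size at which any gene of these arrays was called. A call also depends on the spread of the gene and on the adjustment over all genes, so that size is not a limit of detection.

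As a group the members sat slightly below 0. Their median log2 ratio was -0.11, with 32 of 49 (65.3%) negative, while the median of all genes was 0.034 with 45.1% negative. The median of the members was -0.16, -0.08 and -0.08 on arrays 1, 2 and 3, against -0.04, 0.09 and 0.08 for all genes. Of the members, 14 were negative on all 3 arrays (28.6%, against 15.3% of all genes) and 6 were positive on all 3 (12.2%, against 20.7%). Only 3 members differed by more than 1.5-fold in the mean and none by more than 2-fold; 9.89% of all genes passed 1.5-fold.

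**Figure D2:**
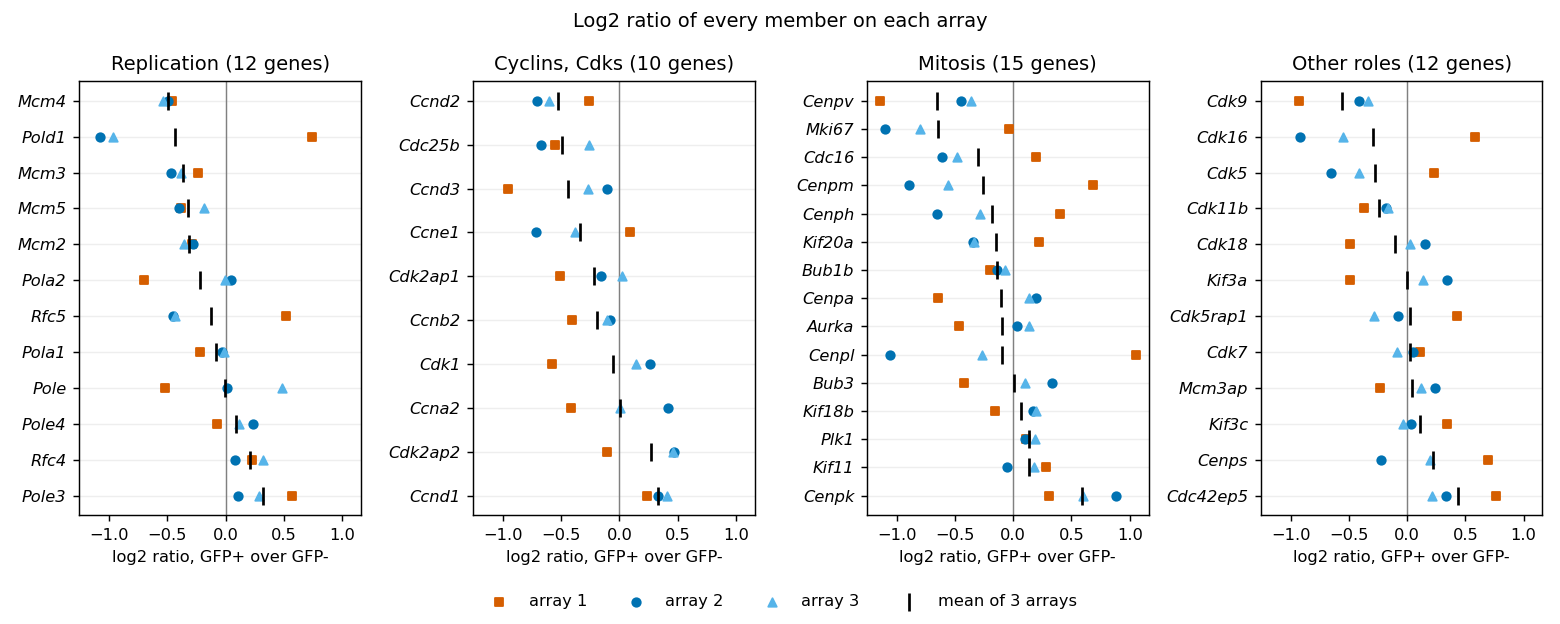
Log2 ratio (GFP+ over GFP-) of each of the 49 members on array 1 (squares), array 2 (circles) and array 3 (triangles), with the mean of the 3 arrays as a bar, in a panel for each role, ordered by mean. Mcm2 to Mcm5 lie left of 0 on every array with their points close together, while Pold1, Cenpm and Cenpl have array 1 at 0.74, 0.69 and 1.05 and the other arrays below 0.

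The measured helicase subunits were below 0 on every array, and Mcm4 and Mcm2 had the smallest SDs over arrays of the 12 replication genes. Mcm4 read -0.46, -0.50 and -0.54 on arrays 1, 2 and 3, a mean of -0.50 ± 0.04 (SD, n = 3), which is 1.41-fold lower in the GFP+ fraction (95% interval -0.87 to -0.13; limma, adjusted p = 0.205). Mcm3 read -0.24, -0.47 and -0.39 (mean -0.37 ± 0.12; adjusted p = 0.36). All arrays were below 0 for both genes, and the interval of Mcm3, -0.74 to 0.01, reached just past 0.
Mcm5 read -0.38, -0.40 and -0.18 (mean -0.32 ± 0.12; adjusted p = 0.425). Mcm2 read -0.29, -0.28 and -0.36 (mean -0.31 ± 0.04; adjusted p = 0.424). Mcm2 to Mcm5 are parts of the same ring, and the 4 subunits spanned a narrow range of means, -0.50 to -0.31, on 4 separate probes. The median of the 4 was -0.33, -0.43 and -0.37 on arrays 1 to 3, and their median SD over arrays was 0.0801, against 0.306 for all genes. None of the 4 passed the test over all genes. Mcm6 and Mcm7, the other subunits, had no value on any array.

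The DNA polymerase subunits had means on both sides of 0. Pold1, the catalytic subunit of polymerase delta, read 0.74, -1.08 and -0.96 (mean -0.43 ± 1.02; adjusted p = 0.648), so that its array 1 stood on the other side of 0 from arrays 2 and 3. Pola2, the accessory subunit of polymerase alpha, read -0.70, 0.05 and -0.01 (mean -0.22 ± 0.42), and Pola1, its catalytic subunit, averaged -0.09 ± 0.11. Pole, the catalytic subunit of polymerase epsilon, read -0.52, 0.01 and 0.48 (mean -0.01 ± 0.50).
The small epsilon subunits, which fold like histones, had means above 0. Pole3 read 0.57, 0.11 and 0.28 (mean 0.32 ± 0.23; adjusted p = 0.454), above 0 on every array. Pole4 read -0.07, 0.24 and 0.12 (mean 0.09 ± 0.16).

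Rfc4 and Rfc5 are subunits of the loader that opens the Pcna clamp onto DNA. Rfc4 read 0.23, 0.08 and 0.32 (mean 0.21 ± 0.12; adjusted p = 0.593). Rfc5 read 0.52, -0.45 and -0.44 (mean -0.12 ± 0.56), with array 1 opposed to the others. Over the 12 replication members, 9 means were negative and 3 positive, with a median of -0.17. On all 3 arrays, 5 were negative (Mcm2 to Mcm5 and Pola1) and 2 positive (Rfc4 and Pole3).

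Among the cyclins, those of the D type differed from each other in sign. Ccnd1, cyclin D1, read 0.24, 0.33 and 0.41, a mean of 0.33 ± 0.09 or 1.26-fold higher (interval -0.05 to 0.70; adjusted p = 0.409). Ccnd2, cyclin D2, read -0.26, -0.71 and -0.60, a mean of -0.52 ± 0.23 or 1.44-fold lower (interval -0.94 to -0.11; adjusted p = 0.233). The arrays of Ccnd1 lay all above 0 and those of Ccnd2 all below, but neither gene passed the test. Of all genes, 20.7% were above 0 on all 3 arrays and 15.3% below 0 on all 3. Both probes of Ccnd2 were negative, with means of -0.62 and -0.42. Ccnd3, cyclin D3, read -0.96, -0.11 and -0.27 (mean -0.44 ± 0.45; adjusted p = 0.419), all below 0 with array 1 far below the others. The difference between the D cyclins was not tested.

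Cdc25b, a phosphatase that switches on Cdk1 at the entry to mitosis, read -0.55, -0.67 and -0.27. Its mean was -0.50 ± 0.21, or 1.41-fold lower (interval -0.90 to -0.09; adjusted p = 0.249). Ccne1, cyclin E1, read 0.09, -0.72 and -0.38 (mean -0.34 ± 0.41).
Cdk1, Ccna2 and Ccnb2 had smaller mean differences than Cdc25b. Of these 3, only Ccnb2 was below 0 on every array. Cdk1 itself read -0.58, 0.26 and 0.14 (mean -0.06 ± 0.45), Ccna2, cyclin A2, -0.42, 0.42 and 0.01 (mean 0.00 ± 0.42), and Ccnb2, cyclin B2, -0.40, -0.08 and -0.11 (mean -0.20 ± 0.18). For all 3, array 1 was the lowest; the sign of Ccna2 turned with the scaling of the arrays. Cdk2ap1 and Cdk2ap2 encode proteins that bind Cdk2. Cdk2ap2 read -0.10, 0.47 and 0.46 (mean 0.27 ± 0.33) and Cdk2ap1 -0.51, -0.16 and 0.02 (mean -0.22 ± 0.27). The median of the 10 genes was -0.21, with 7 negative.

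Mitosis members had means on both sides of 0. Mki67, which encodes the Ki-67 protein that coats mitotic chromosomes and marks cycling cells, read -0.04, -1.10 and -0.80. Its mean was -0.64 ± 0.55, or 1.56-fold lower (interval -1.22 to -0.07; adjusted p = 0.285), and array 1 lay close to 0, away from the other arrays. Cenpk, a subunit of the inner kinetochore, was the highest member: 0.31, 0.88 and 0.60, a mean of 0.59 ± 0.29 or 1.51-fold higher (interval 0.16 to 1.03; adjusted p = 0.203).

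Cenpv, a centromere protein, had the lowest mean and 2 probes that disagreed. The first probe read -2.08, -1.13 and -1.08 (mean -1.43 ± 0.56) and passed when probes were tested singly, with an adjusted p of 0.0395 over 3990 probes. The second read -0.21, 0.23 and 0.35 (mean 0.12 ± 0.30; adjusted p = 0.786). The gene mean of -0.65 ± 0.43 (-1.15, -0.45 and -0.37; adjusted p = 0.228) therefore describes neither probe, and its place among the lower members is that of a mean over probes of opposite sign. In that probe-level fit 1.35% of all probes passed as higher and 1.48% as lower, and the first Cenpv probe was the only member probe of 52 that passed.

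Other kinetochore genes were opposed between arrays. Cenpm read 0.69, -0.89 and -0.56 (mean -0.26 ± 0.83), Cenpl 1.05, -1.06 and -0.27 (mean -0.09 ± 1.07), and Cenph 0.40, -0.66 and -0.28 (mean -0.18 ± 0.54). Cenpa, the histone variant that marks centromeres, was opposed the other way at -0.65, 0.19 and 0.13 (mean -0.11 ± 0.47). Cdc16, a subunit of the anaphase-promoting complex (APC/C) that ends mitosis, read 0.19, -0.62 and -0.48 (mean -0.30 ± 0.43), and both of its probes had negative means, -0.17 and -0.43.

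The mitotic kinases and motors had small means. Plk1, the main Polo kinase, read 0.11, 0.10 and 0.19 (mean 0.13 ± 0.05), and Kif11, the kinesin that pushes the spindle poles apart, 0.28, -0.05 and 0.18 (mean 0.14 ± 0.17). Aurka, the Aurora kinase of the spindle poles, averaged -0.10 ± 0.32, and Kif20a, a kinesin of cell division, -0.15 ± 0.32. Kif18b, a kinesin that trims microtubule ends, averaged 0.07 ± 0.20 on the probe used, which read -0.16 on array 1. A second Kif18b probe, without a value on array 2 and so not used, read 0.31 and 0.23 on arrays 1 and 3. The checkpoint genes Bub1b and Bub3 averaged -0.14 ± 0.06 and 0.00 ± 0.39. Plk1 and Bub1b were among 6 members whose SD over arrays was below 0.1, with Mcm2, Mcm4, Ccnd1 and Cdk7; 9.66% of all genes had an SD that small. For Plk1 the interval of the log2 ratio ran from -0.24 to 0.50 and for Bub1b from -0.51 to 0.23. Of the 15 mitosis members, 10 means were negative and 5 positive, with a median of -0.11.

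The 12 members whose names match but whose known work is mostly elsewhere, or that were not placed, had a median of 0.01 with 6 negative and 6 positive. Cdk9, the kinase that releases paused RNA polymerase, read -0.93, -0.41 and -0.33, a mean of -0.56 ± 0.33 or 1.47-fold lower (interval -1.01 to -0.11; adjusted p = 0.245). Cdc42ep5, an effector of the GTPase Cdc42, read 0.77, 0.33 and 0.21 (mean 0.44 ± 0.29; adjusted p = 0.338). Both kept 1 sign on every array, with array 1 the farthest from 0.
Cdk16, a kinase of the PCTAIRE group, read 0.58, -0.92 and -0.55 (mean -0.30 ± 0.78), and Cdk5, best known in neurons, 0.23, -0.65 and -0.42 (mean -0.28 ± 0.46). Cenps, a centromere protein that the role list did not place with mitosis, read 0.70, -0.22 and 0.20 (mean 0.22 ± 0.46), and Kif3c, a transport kinesin, 0.34, 0.04 and -0.04 (mean 0.11 ± 0.20). The other 6 (Cdk11b, Cdk18, Kif3a, Cdk5rap1, Cdk7 and Mcm3ap) had means from -0.24 to 0.04. Leaving out all 12 moved the median of the members to -0.14.

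Replication and mitosis were compared on each array. The replication median minus the mitosis median was -0.33, -0.02 and -0.02 on arrays 1, 2 and 3, a mean of -0.12 ± 0.18 (SD, n = 3). An exact two-sided sign-flip permutation test gave p = 0.25, which is the smallest value that 3 arrays allow, so this design cannot reach 0.05. With means in place of medians the difference was -0.08, 0.01 and -0.03, averaging -0.03 ± 0.05 (exact permutation p = 0.5). The mitosis median was 0.11 on array 1 and -0.14 and -0.08 on arrays 2 and 3, while the replication median was -0.23, -0.16 and -0.10. Without array 1 the difference was -0.02, and with members measured on at least 2 arrays it was 0.036, on the other side of 0. A difference between the groups was therefore not shown, and its direction was not stable.

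**Figure D3:**
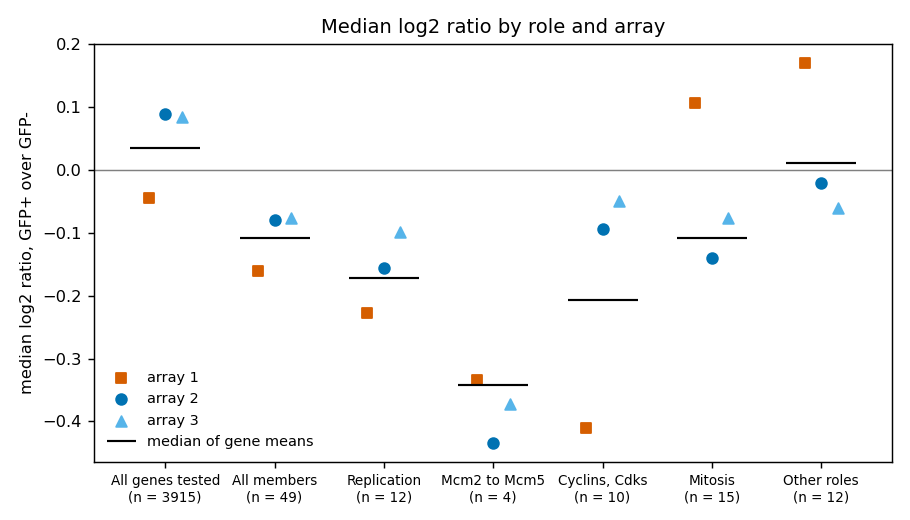
Median log2 ratio (GFP+ over GFP-) of all 3915 genes, all 49 members and the members by role, on array 1 (squares), array 2 (circles) and array 3 (triangles), with the median of the gene means as a bar. The medians of Mcm2 to Mcm5 lie between -0.43 and -0.33 on every array, and the mitosis median is 0.11 on array 1 and below 0 on the others.

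Array 1 stood apart from the other arrays, and many member values depend on it. Across all genes the log2 ratios of arrays 2 and 3 had a Pearson correlation of 0.883, while array 1 had 0.08 with array 2 and 0.277 with array 3. Across the 49 members the same correlations were 0.876, -0.251 and -0.0905; genes on shared arrays are not independent, and these values are descriptions. In 23 members (46.9%, against 50% of all genes) array 1 had the opposite sign to both other arrays.
Of these, 11 were positive on array 1 and negative on the others, among them Pold1, Rfc5, Ccne1, Cdc16, Cenpm, Cenph, Cenpl and Kif20a. The other 12 were negative on array 1 only, among them Cdk1, Ccna2, Cenpa, Aurka, Bub3 and Pole. By role, array 1 was opposed in 9 of 15 mitosis members, 4 of 12 replication members, 4 of 10 cyclins and Cdks and 6 of 12 of the rest. None of Mcm2 to Mcm5 was among them.

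**Figure D4:**
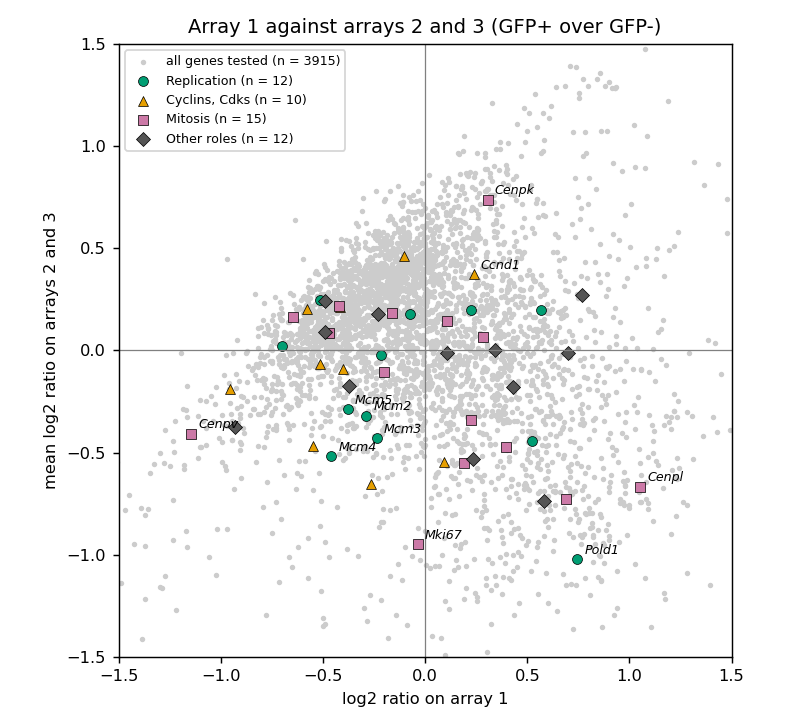
Log2 ratio on array 1 (x axis) against the mean log2 ratio of arrays 2 and 3 (y axis) for all 3915 genes (grey) and the members by role (coloured); 94 genes beyond 1.5 on either axis, none of them a member, are not drawn. Mcm2 to Mcm5 lie together in the lower left, where both values are negative, while Pold1 and Cenpl lie in the lower right, where array 1 is positive and the others negative.

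Without array 1, 21 members passed an adjusted p of 0.05, 3 higher (6.12%) and 18 lower (36.7%), in a fit where 27.5% of all genes passed as higher and 18.8% as lower. The lower members were 5 replication genes (Mcm2, Mcm3, Mcm4, Pold1 and Rfc5), 3 of the cyclin and Cdk group (Ccnd2, Cdc25b and Ccne1), 7 mitosis genes (Mki67, Cenpv by its probe mean, Cdc16, Cenpm, Cenph, Kif20a and Cenpl) and 3 others (Cdk9, Cdk16 and Cdk5). The higher ones were Ccnd1, Cdk2ap2 and Cenpk. In that fit Mki67 averaged -0.95 (adjusted p = 0.00359), Pold1 -1.02 (adjusted p = 0.00185), Mcm4 -0.52 (adjusted p = 0.00984) and Cenpk 0.74 (adjusted p = 0.00626). In all, 1815 of 3915 genes were called there, and the labels do not say whether arrays 2 and 3 came from separate RNA, so these calls rest on the close likeness of 2 arrays. Leaving out array 2 or array 3 instead gave 0 members.

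Members measured on fewer arrays were not part of the test. Of the 143 genes, 21 had values on 2 arrays and 7 on 1 array. Cdk4, the partner of the D cyclins, read -0.997 and -0.272 on arrays 1 and 2. Bub1, a checkpoint kinase, read -0.48 and -0.55 on arrays 2 and 3, Cenpn, a kinetochore subunit, -2.11 and -0.96, and Rfc3, another clamp loader subunit, -0.40 and -0.16. Over all 21 genes with 2 values, 9 were negative on both arrays, these 4 among them. Another 3 were positive on both (Cdk3, Kif1a and Plk3) and 9 had 1 value of each sign. Signs were not counted over the 829 genes of the platform with 2 values, so these counts have no background. The counts also pool different pairs of arrays, and arrays 2 and 3 had the same sign in 86% of the 3915 genes. Kif15, a spindle kinesin, read 0.94 on array 1 and -0.92 on array 3, the same split as the opposed members above. Cdc6, which loads the Mcm ring, read -0.56 and 0.05 on arrays 1 and 3. When genes with values on at least 2 arrays were fitted, 1 of 70 passed, Cdc42ep3, a Cdc42 effector, at -2.78 and -1.57 on arrays 2 and 3 (adjusted p = 0.0386). In that fit 1.71% of 4744 genes passed as lower and 1.37% as higher.
The 66 genes with no value included Pcna, Mcm6, Mcm7, Cdc45, Rfc1, Rfc2 and Pold2 of replication, Ccne2, Cdk2 and Cdk6, and Top2a, Aurkb, Cdc20, Plk4, Cenpe and Cenpf of mitosis. They were 7 of 25 replication genes, 5 of 17 cyclins and Cdks, 19 of 41 mitosis genes and 35 of 60 others. Of the 15096 genes of the platform, 9449 had no value.

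Genes that work beside the members gave 1 call over 5 lists, which held 16, 10, 14, 22 and 7 measured genes. Of all 3915 genes, 1.4% passed as lower and 1.38% as higher. Cdkn1c, an inhibitor of Cdks, read -1.02, -1.01 and -0.74, a mean of -0.92 ± 0.16 or 1.89-fold lower in the GFP+ fraction (adjusted p = 0.0435). It was the only one of 14 measured G1/S regulators and Cdk inhibitors to pass; the median of that list was 0.05, with 7 negative and 7 positive, and Cks2, a small Cdk subunit, was its highest at 0.47.
Of 16 measured origin and replication fork factors none passed, 12 were negative and the median was -0.13. On arrays 1 to 3 the median of this list was -0.24, -0.003 and -0.07, and that of the G1/S list -0.009, 0.07 and 0.12. Orc6, of the origin recognition complex that helps to load the Mcm ring, read -0.43, -0.52 and -0.35. Its mean was -0.43 ± 0.09 (limma, adjusted p = 0.27), between those of Mcm3 and Mcm4. The other measured subunits of the complex did not share that value. Orc3, Orc4 and Orc5 had means of -0.12, 0.04 and -0.13, each with arrays of both signs. Rpa3, which binds single-stranded DNA, read 0.22, 0.50 and 0.60 (mean 0.44 ± 0.19; adjusted p = 0.289), and Gins1, a helicase partner, had the lowest mean at -0.55 with array 1 at 0.52.

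None of 22 measured spindle, checkpoint and APC/C genes passed, and their median was 0.035 with 14 positive. By array their median was -0.17, 0.23 and 0.11 on arrays 1 to 3, so array 1 was on the other side of 0. Pttg1, the securin that holds back sister separation, read 1.17, 0.26 and 0.47 (mean 0.63 ± 0.48; adjusted p = 0.266) and Spc24, a kinetochore subunit, 0.09, 0.86 and 0.70 (mean 0.55 ± 0.41; adjusted p = 0.285). Both were above 0 on every array; Prc1, which bundles microtubules of the dividing spindle, was lowest at -0.61.
None of 10 measured nucleotide supply genes passed (median -0.07; Dtymk lowest at -0.52, Nme1 highest at 0.39), and none of 7 condensin and cohesin genes (median -0.08; Smc6 lowest at -0.40, Ncaph2 highest at 0.33). On arrays 1 to 3 the nucleotide supply median was -0.24, 0.13 and 0.07, and the condensin and cohesin median -0.13, 0.30 and 0.06. Cdkn1c, Orc6, Rpa3, Pttg1 and Spc24 were the only genes of these 5 lists with an unadjusted limma p below 0.05. Cdkn1c and Orc6 were lower and the others higher. Over all genes, 6.41% were lower and 8.45% higher at that threshold.

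The promoter words were also set beside the ratios. The 9 members with an E2F word had means from -0.43 to 0.22, with a median of -0.09 and 7 negative. The 26 with CCAAT ranged from -0.64 to 0.59 with a median of -0.12 and 20 negative, and the 18 with a CHR word from -0.64 to 0.44 with a median of -0.10 and 11 negative. Of all 49 members, 32 (65.3%) were negative, with a median of -0.11. Members can hold several words, so these sets share genes, and a link between word and ratio was not tested.

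Apart from endothelium, the marker lists of the sorted cells and of cells in the GFP- fraction had medians farther from 0 than the mean of any member. Of the ureteric epithelium list, 6 of 12 genes were measured on all 3 arrays, 5 passed as higher and the median was 2.05; Ret and Wnt11 were not among the 6. Macrophage markers had a median of -1.96 (5 of 5 passed as lower), stroma -1.61 (4 of 5), erythroid -2.15 (2 of 3) and cap mesenchyme -1.19 (3 of 6), while the 6 endothelial markers had a median of -0.36 and 0 passed. The macrophage median was -1.81, -1.98 and -2.02 and the erythroid median -2.08, -2.20 and -1.85 on arrays 1 to 3, so these 2 lists showed no split of array 1 from the others like that of Pold1 or Cenpm. The part of these cell types in the members' ratios was not tested, since the arrays give ratios and not the level in either fraction.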

How the data were processed

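Arrays of the Mouse Compugen oligonucleotide design were read with Imagene 5.5, per the labels' protocols. The deposited values are log2 ratios: the authors fitted a Lowess curve with 20% of the data per point, used it to adjust the control channel and raised control values below 10 to 10, per the labels. The base was settled from the values (99.97% of the back-transformed ratios were whole thousandths within 0.01 of a thousandth). The titles call the values filtered, by a rule not given in the sources used here. Of 22702 features, 5182, 4983 and 6191 had values on arrays 1, 2 and 3; signal over background could not be examined.

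Genes with 1 symbol and values on all 3 arrays were fitted with an intercept-only model (lmFit, eBayes) in limma 3.58.1 under R 4.3.3. Each mean was tested two-sided against 0 with Benjamini-Hochberg adjustment. A check was run on simulated independent arrays of equal noise, of which, unlike here, none stood apart. The arrays form 1 group; the labels do not say whether they came from separate pools, and the p-values speak for the spread of these 3 arrays alone, which could be technical. Errors are SDs over arrays. Values on each array are printed for members at an unadjusted p below 0.05, every Mcm gene, and the 3 highest and 3 lowest of each role; of the pathway lists, genes past a threshold and the extremes. Other members are named where a sentence needs them, chosen after their values were seen. The members, roles and lists were chosen with earlier results of these data known. The alternatives were leaving out each array, centring, quantile normalization, values on at least 2 arrays, averaging arrays 2 and 3, current symbols, the ordinary statistic, array weights, single probes and leaving out members of other roles; counting Cenps with mitosis was added after seeing the data.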

Additional observations from a re-analysis of the deposited data

How the results depend on the processing

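The count of members called, 0 with all arrays, was 0 after centring, quantile normalization, averaging arrays 2 and 3, current symbols and with the ordinary statistic, which called 1 of 3915 genes. Leaving out 1 array gave 0 to 21 members, the 21 without array 1, where 1815 of 3915 genes were called. Array weights of 0.15, 1.55 and 4.31 for arrays 1 to 3 gave 27 of 49 members (7 higher and 20 lower), where 2170 of 3915 genes were called. Those 2170 were not counted by direction, so the split of the 27 has no background. Values on at least 2 arrays gave 1 (Cdc42ep3) among 146 of 4744 genes called, and single probes 1 (Cenpv) among 113 of 3990. The median of the members was -0.16 to -0.068 with 1 array left out. Replication minus mitosis was recomputed with 1 array left out, after centring and quantile normalization, with arrays 2 and 3 averaged, with current symbols and with Cenps counted as mitosis (-0.15), and was -0.19 to -0.02 in these; with at least 2 arrays it was 0.036. Among named genes near 0, Ccna2 was -0.039 after centring, -0.013 after quantile normalization, -0.10 with arrays 2 and 3 averaged and -0.21 to 0.21 with 1 array left out. With 1 array left out Cdk16 was -0.74 to 0.018, Cenps -0.012 to 0.45 and Kif3c -0.00045 to 0.19, and Kif3c was -0.0084 with array weights. Why array 1 differs was not tested. With 3 arrays, no dye swap and no raw intensities, a dye effect on a gene and a difference between the fractions cannot be told apart.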
